A study of Homo sapiens with 20 samples.

Results

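The knock-down effect shared by CD133- and CD133+ HEC-1A cells was measured as the mean of 2 contrasts, EIF4G2KD against Control within CD133- cells and EIF4G2KD against Control within CD133+ cells. All 19 libraries that had counts entered it, of 20 samples that the labels name. HEC-1A is an established human endometrial adenocarcinoma line. Its cells carried a stable lentiviral shRNA against EIF4G2 with puromycin selection, or a control shRNA. The paper's methods give GFP as the target of the control, and the sample labels write it as shNT. With the CD133 sort this gave 4 groups. CD133- Control, CD133- EIF4G2KD and CD133+ EIF4G2KD had 5 libraries each, and CD133+ Control had 4. The methods name a single shRNA against EIF4G2, so an effect on EIF4G2 and an effect of that shRNA or of the selected line cannot be told apart. Each sample held 15000 cells, sorted by flow cytometry for the presence or absence of CD133, the product of PROM1. RNA was read by bulk MARS-seq, a poly(A)-primed method that sequences transcript 3' ends. CD133+ Control replicate 3 failed the authors' quality check and is not analysed here. The labels run to replicate 5, the series description gives 4 independent experiments, and no source says which libraries share a culture. Error here is therefore the scatter of libraries, part of which could be technical.

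EIF4G2 (also DAP5) is a translation initiation factor related to eIF4G that lacks the part of eIF4G that binds the cap-binding protein eIF4E. It recruits ribosomes to a subset of mRNAs, so transcript counts read only what follows at the level of mRNA. CD133 is used as a marker of stem-like cells in several carcinomas, among them endometrial carcinoma. The averaged contrast asks which transcripts moved with the knock-down on both sides of the CD133 gate.

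Libraries held 1679447 to 5234905 counts (median 3047418). All 10 epithelial markers listed for the line were in the table, with a summed level of 9280 to 15642 CPM (a gene's counts relative to the TMM-scaled size of its library) in the 19 libraries, while the 3 of 18 immune, 1 of 16 fibroblast or endothelial and 1 of 7 red cell or hepatic markers with values summed to at most 9.60, 6.71 and 1.63 CPM. In bulk samples such as these, fewer cells of a type and less RNA per cell cannot be told apart. On the first principal component (25% of the variance), CD133- EIF4G2KD replicates 2, 4 and 5 and CD133+ EIF4G2KD replicate 3 stood apart from the other 15 libraries. They also had the least EIF4G2 of their groups. It was 102, 51.1 and 36.8 CPM in the CD133- libraries, against 163 and 164 CPM in CD133- EIF4G2KD replicates 1 and 3. CD133+ EIF4G2KD replicate 3 had 129.5 CPM, against 231 to 349.8 CPM in the rest of its group. A fit without them thus also lacks the libraries of lowest EIF4G2, and the 2 traits cannot be told apart by it. Without these 4 libraries, 17 of 125 named genes no longer passed on the averaged effect, and of the 62 named genes called shared below 41 were still shared. Over all genes, 253 are called shared below, and 121 of these 253 were still shared without the 4 libraries.

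EIF4G2, on chromosome 11 (GRCh38, 10797050 to 10808940, minus strand), was the first check of the labels. It stood at 360.1, 193, 323, 245 and 333 CPM in CD133- Control replicates 1 to 5 and at 163, 102, 164, 51.1 and 36.8 CPM in CD133- EIF4G2KD replicates 1 to 5. In CD133+ cells it stood at 377, 360.2, 275 and 335 CPM in Control replicates 1, 2, 4 and 5 and at 349.8, 269.99, 129.5, 231 and 253 CPM in EIF4G2KD replicates 1 to 5. The CD133- groups did not overlap, whereas CD133+ EIF4G2KD replicate 1 lay within the range of its controls. EIF4G2 fell by 1.55 on the log2 scale in CD133- cells (SE 0.29, edgeR adjusted p = 0.018), and in CD133+ cells its log2 fold change was -0.48 (SE 0.29, adjusted p = 0.30). The averaged effect was -1.01 (SE 0.21, adjusted p = 0.0029), the test of the difference between the populations gave an adjusted p of 0.13, and an exact two-sided permutation test over the libraries within each population gave p = 0.00054 (smallest possible 3.1e-05). PROM1 itself, the sorted antigen, stood at 0.428 to 3.31 CPM in the CD133- libraries and at 11.6 to 26.4 CPM in the CD133+ libraries, and its averaged effect was 0.10 (SE 0.28, adjusted p = 0.83). That average joins group means that moved in opposite directions. The CD133- groups were low and overlapped, at 0.513 to 3.31 CPM in Control and 0.428 to 1.83 CPM in EIF4G2KD. The CD133+ groups overlapped as well, at 11.6 to 16.5 and 12.9 to 26.4 CPM. Mean PROM1 was 1.93 CPM in CD133- Control and 1.31 in CD133- EIF4G2KD, against 13.4 CPM in CD133+ Control and 21.6 in CD133+ EIF4G2KD.

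The averaged effect held more falls than rises once a minimum fold change was set, and about as many rises as falls without it (768 higher and 780 lower by adjusted p alone, with 275 and 259 of them shared). With the thresholds of the study (adjusted p below 0.05, absolute log2 fold change above 0.58 and mean normalized count above 10), 511 of 10338 genes were called (4.94%), 180 higher (1.74%) and 331 lower (3.2%) in EIF4G2KD. Of these, 253 had the same direction and an unadjusted p below 0.05 in each population and are called shared here, 91 of them higher and 162 lower. A further 88 were driven by CD133+ cells (31 higher, 57 lower) and 3 by CD133- cells (all lower), meaning that the test of the difference passed and that the gene had p below 0.05 in that population only or opposite signs. The other 167 could not be assigned, EIF4G2 among them. When the fit left out the replicate block, 277 genes passed, 135 of them shared and 42 driven by a single population.

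The CD133+ effect was the larger in 202 of the 253 shared genes (79.8%, against 56.9% of all tested genes and 79.5% of called genes), with a median absolute log2 fold change of 0.96 against 0.72 in CD133- cells. The difference itself passed the test for 21 of the 253 (8.3%, against 6.56% of all tested genes and 21.9% of called genes). The class rule lowers this share, because called genes that pass that test with p below 0.05 in a single population or opposite signs are counted as driven. Among the 21 were SCIN, PPP2R2C and SEMA6A as rises and SEMA6B, PLLP and CST6 as falls. On its own, the CD133- contrast called 80 genes (0.774%) and the CD133+ contrast 1025 (9.91%), of which 445 were higher (4.3%) and 580 lower (5.61%), and these held 35 and 189 of the 253 shared genes. In the whole table the 2 effects had the same sign for 6210 of 10338 genes, and in the called set for 482 of 511, a share that the averaging itself favours.

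**Figure D1:**
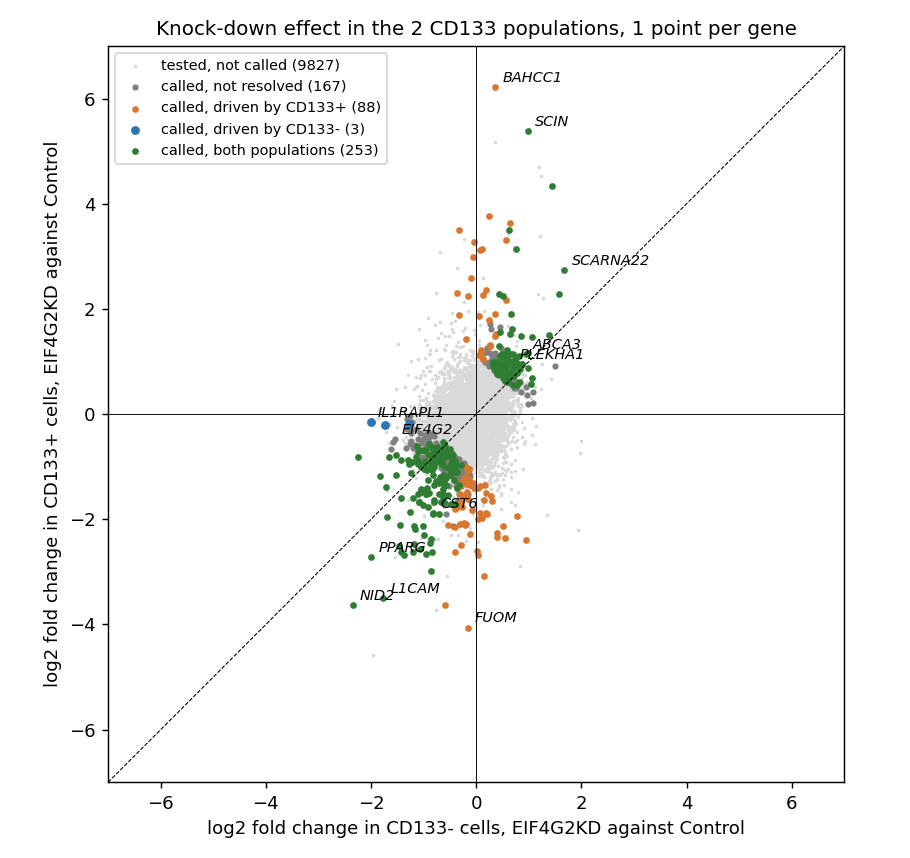
Log2 fold change of each of 10338 genes in CD133- cells (x axis) and CD133+ cells (y axis), EIF4G2KD against Control, with 1 point per gene coloured by class and a dashed line where both effects are equal. The 253 shared genes lie in the lower left and upper right quadrants, while the 88 genes driven by CD133+ cells lie along the vertical axis.

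The strictest count asked each gene to pass in both populations separately, with the larger of its 2 p-values adjusted over all genes and both absolute log2 fold changes above 0.58. It held 7 of 10338 genes (0.0677%). SCARNA22 and PLEKHA1 were higher (0.0193%), and PPARG, LINC00431, VSTM1, SERTAD4-AS1 and CST6 were lower (0.0484%). The count rested on single libraries. It was 0 without CD133- Control replicate 1, 4 or 5 or without CD133- EIF4G2KD replicate 1, it was 2 without CD133- EIF4G2KD replicate 4 and 4 without CD133- Control replicate 3 or CD133- EIF4G2KD replicate 2, and it was 31 without CD133- Control replicate 2. With DESeq2 it was 21 and with limma-voom 41, and 535 genes had an unadjusted p below 0.05 and the same direction in both populations by edgeR. Without the 4 libraries that stood apart it was 4, of which PPARG and VSTM1 were among the 7, and the other 5 had an adjusted p for both between 0.054 and 0.12. Without the block edgeR gave 0, while each of the 7 genes was still called on the averaged effect there and still shared.

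PPARG, the nuclear receptor that drives adipocyte differentiation and lipid storage, is on chromosome 3 (12287368 to 12434356, plus strand). It stood at 25.7, 6.20, 26.8, 49.9 and 27.5 CPM in CD133- Control replicates 1 to 5 and at 2.42, 8.54, 9.51, 10.1 and 5.56 CPM in CD133- EIF4G2KD replicates 1 to 5. Levels in CD133+ cells were 30.3, 40.3, 64.4 and 33.1 CPM in the 4 controls and 4.59, 4.49, 10.0, 12.8 and 3.89 CPM in the 5 EIF4G2KD libraries. The CD133+ groups were apart, and in CD133- cells Control replicate 2 alone lay among the EIF4G2KD libraries. PPARG fell by 2.00 (SE 0.33) in CD133- and by 2.72 (SE 0.34) in CD133+ cells, and the adjusted p for both together was 0.021. Of the other lipid storage genes, 20 tested in all with PPARG, ADIPOR1 was higher and ANGPTL4 lower by the adjusted p of the averaged effect. Neither ADIPOR1 nor ANGPTL4 had p below 0.05 in both populations, so PPARG was the only shared gene of the list.

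CST6 encodes cystatin E/M, a secreted inhibitor of cysteine proteases (chromosome 11, 66012008 to 66013505, plus strand). Its levels were 318, 142, 135, 135 and 393 CPM in CD133- Control and 156, 109.7, 92.9, 57.6 and 216 CPM in CD133- EIF4G2KD, in the order of the replicate numbers. In CD133+ cells they were 365, 240.4, 185 and 453 CPM in Control and 96.1, 78.8, 61.7, 37.9 and 124 CPM in EIF4G2KD. The CD133- groups overlapped, yet the EIF4G2KD library was the lower one in all 9 pairs of the same replicate number over both populations. CST6 fell by 0.81 (SE 0.12) in CD133- and by 1.88 (SE 0.14) in CD133+ cells (adjusted p for both 0.011), and the fall was larger in CD133+ cells (difference -1.07, adjusted p = 0.0014).

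LINC00431, annotated as a transcribed pseudogene on chromosome 13 (110989980 to 110990138, plus strand, overlapping another gene of the same strand), fell by 1.69 (SE 0.24) and 1.96 (SE 0.24) in CD133- and CD133+ cells. Its control libraries ranged from 5.81 to 32 CPM in CD133- and from 21.7 to 43.0 CPM in CD133+ cells, against 2.44 to 9.67 and 5.40 to 10.9 CPM in EIF4G2KD. VSTM1, known as an inhibitory receptor of leukocytes (chromosome 19, 54040825 to 54063953, minus strand), fell by 1.43 (SE 0.20) and 1.59 (SE 0.20). Both had an adjusted p of 0.0074 for the 2 populations together, and both were lower in 9 of 9 same-numbered pairs. SERTAD4-AS1, antisense to SERTAD4 on chromosome 1, fell by 0.92 (SE 0.17) in CD133- cells and fell by 1.77 (SE 0.18) in CD133+ cells, and the strand setting of the counting is not given in the sources used here, so reads of SERTAD4 cannot be told apart from it. PLEKHA1, which binds a phosphoinositide of the plasma membrane through its PH domain (chromosome 10), rose by 0.68 (SE 0.12) and 0.95 (SE 0.13). Its EIF4G2KD library was the higher one in 9 of 9 pairs, at 30.8 to 69.4 CPM against 18.2 to 38.8 CPM in CD133- and at 26.0 to 44.2 against 12.5 to 24.8 CPM in CD133+ cells.

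NID2 and L1CAM were shared falls, and ABCA3 was a shared rise of similar size in both populations. NID2 and L1CAM had low counts, and neither was called when the mean normalized count had to be above 30, whereas ABCA3 was. NID2 is nidogen-2, a glycoprotein that links laminin and collagen IV in basement membranes. L1CAM is an immunoglobulin-family adhesion molecule of neurons that is also used as a marker of poor outcome in endometrial carcinoma, and ABCA3 is a phospholipid transporter best known from lamellar bodies of the lung. Their promoters, from 250 bases before to 50 after the RefSeq start (GRCh38.p14), are shown together with that of PPARG because the 4 genes were called shared. Of the 4, PPARG alone was in the strictest set. NID2 is at chr14:52069010-52069309, L1CAM at chrX:153875895-153876194 and ABCA3 at chr16:2340679-2340978, each on the minus strand, and PPARG at chr3:12287118-12287417 on the plus strand. Capitals mark matches, on either strand, to 6 motifs: the TATA box (TATAAA), the CCAAT box (CCAAT), the GC box (GGGCGG), the E-box (CACGTG), the AP-1 site (TGACTCA) and the TEAD site (GGAATG).
NID2: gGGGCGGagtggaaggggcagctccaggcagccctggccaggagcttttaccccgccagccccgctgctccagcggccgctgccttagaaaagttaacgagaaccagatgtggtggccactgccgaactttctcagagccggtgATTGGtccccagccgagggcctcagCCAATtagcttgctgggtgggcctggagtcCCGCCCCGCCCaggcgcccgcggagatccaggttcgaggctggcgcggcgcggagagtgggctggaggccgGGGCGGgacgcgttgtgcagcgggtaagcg
L1CAM: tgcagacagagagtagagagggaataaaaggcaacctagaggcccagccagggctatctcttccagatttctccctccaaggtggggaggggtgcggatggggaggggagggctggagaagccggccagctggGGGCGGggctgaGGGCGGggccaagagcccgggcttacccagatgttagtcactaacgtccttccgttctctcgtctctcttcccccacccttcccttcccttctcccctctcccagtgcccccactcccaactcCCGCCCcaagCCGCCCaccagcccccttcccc
PPARG: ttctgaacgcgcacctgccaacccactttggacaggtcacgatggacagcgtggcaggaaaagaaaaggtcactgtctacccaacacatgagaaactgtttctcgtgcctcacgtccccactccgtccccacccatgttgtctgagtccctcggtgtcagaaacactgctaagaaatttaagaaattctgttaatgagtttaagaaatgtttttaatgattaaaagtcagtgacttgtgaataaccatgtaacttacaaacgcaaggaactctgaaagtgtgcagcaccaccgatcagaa
ABCA3: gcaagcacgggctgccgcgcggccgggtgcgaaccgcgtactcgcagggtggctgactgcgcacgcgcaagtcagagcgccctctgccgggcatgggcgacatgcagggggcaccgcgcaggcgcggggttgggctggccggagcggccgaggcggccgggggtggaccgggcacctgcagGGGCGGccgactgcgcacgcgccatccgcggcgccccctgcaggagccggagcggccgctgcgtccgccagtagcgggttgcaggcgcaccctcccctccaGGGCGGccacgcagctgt
NID2 held CCAAT 2 times and GGGCGG 4 times, 2 of the latter overlapping by a single base. L1CAM held GGGCGG 4 times and ABCA3 2 times, and PPARG held none of the 6 motifs in this window. Over all 27305 RefSeq promoters of this length, GGGCGG was in 44.6%, CCAAT in 35.7%, GGAATG in 14%, TATAAA in 12%, CACGTG in 7.43% and TGACTCA in 4.92%. Among promoters of tested genes (8175 matched by symbol), GGGCGG was in 72.1%, against 62.9% of the 124 matched promoters of shared falls and 67.2% of the 67 of shared rises. TATAAA was in 4.93% of tested genes, 9.68% of shared falls and 10.4% of shared rises. These are descriptions of letters in a window and say nothing of binding.

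NID2 stood at 9.45, 1.16, 5.64, 5.76 and 8.47 CPM in CD133- Control replicates 1 to 5 and at 1.12, 0.61, 0.839, 2.30 and 1.28 CPM in CD133- EIF4G2KD replicates 1 to 5. In CD133+ cells it stood at 9.67, 14.7, 6.90 and 17.5 CPM in the 4 controls and at 0.54, 1.23, 1.79, 0.473 and 0.834 CPM in the 5 EIF4G2KD libraries. Apart from CD133- Control replicate 2, every control lay above every EIF4G2KD library. NID2 fell by 2.35 (SE 0.47, adjusted p = 0.025) in CD133- and by 3.64 (SE 0.48, adjusted p = 4.4e-05) in CD133+ cells, an averaged effect of -2.99 (SE 0.34, adjusted p = 1.6e-05). The adjusted p for both together was 0.087 and, without CD133- Control replicate 2, 0.0023. Left out 1 at a time, CD133- Control replicates 1, 3, 4 and 5 gave 0.47, 0.14, 0.30 and 0.35.

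L1CAM showed the same arrangement of libraries. It stood at 11.8, 1.94, 7.29, 8.32 and 11.6 CPM in CD133- Control and at 2.61, 2.44, 1.40, 3.22 and 3.00 CPM in CD133- EIF4G2KD. For CD133+ cells the values were 17.0, 18.6, 9.53 and 15.6 CPM in Control and 1.08, 0.817, 3.95, 0.946 and 0.278 CPM in EIF4G2KD. The log2 fold change was -1.77 (SE 0.44, adjusted p = 0.063) in CD133- cells and -3.50 (SE 0.49, adjusted p = 8.2e-05) in CD133+ cells, with an averaged effect of -2.64 (SE 0.33, adjusted p = 5.5e-05). The adjusted p for both together was 0.22. Left out 1 at a time, CD133- Control replicates 1, 3, 4 and 5 gave 0.72, 0.29, 0.55 and 0.84. The adjusted p for both was 0.034 without CD133- Control replicate 2, the control library with the lowest L1CAM, NID2 and PPARG. EIF4G2 in that library was 193 CPM, the lowest of its group and above all CD133- EIF4G2KD libraries. An antisense gene, L1CAM-AS1, overlaps L1CAM.

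ABCA3 stood at 9.19, 13.9, 11.3, 14.1 and 10.5 CPM in CD133- Control and at 19.8, 21.3, 17.1, 26.3 and 28.2 CPM in CD133- EIF4G2KD. In CD133+ cells it stood at 12.9, 12.8, 14.5 and 9.50 CPM in Control and at 22.7, 30.6, 37.3, 20.3 and 26.4 CPM in EIF4G2KD. No library overlapped in either population. It rose by 0.94 (SE 0.20, adjusted p = 0.035) and by 1.13 (SE 0.21, adjusted p = 0.0012), the difference between the populations was 0.19 (adjusted p = 0.78), and the adjusted p for both together was 0.11. Of 22 ABC transporters tested, ABCA4, the retinoid transporter of photoreceptors, was the other that passed, and it was lower (averaged effect -1.82, adjusted p = 7.9e-05).

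**Figure D2:**
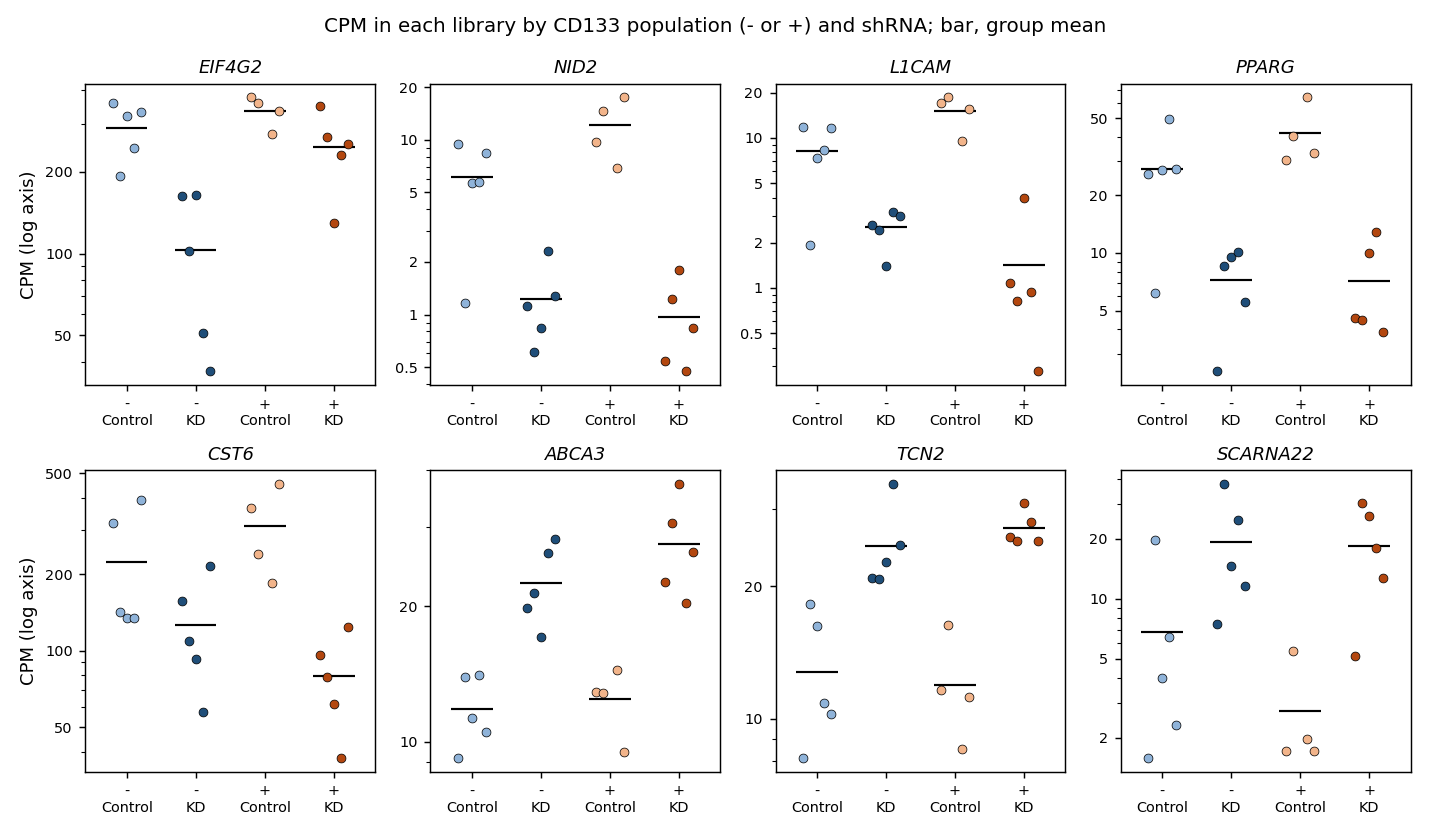
CPM (log axis) of 8 genes in each of 19 libraries, by CD133 population and shRNA (KD, EIF4G2KD), with points ordered by replicate number within a group and bars at the group mean. NID2, L1CAM and PPARG have 1 low CD133- Control library (replicate 2), while the ABCA3 and TCN2 groups are apart in both populations.

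Further shared genes, the largest by the smaller of their 2 effects and named after values were seen, were PCSK5, CYP4F3, GPNMB and IL1R2. PCSK5, a protease that processes secreted precursors, had 1.39 in CD133- and 1.51 in CD133+ cells (averaged adjusted p = 0.00032). CYP4F3, which inactivates leukotriene B4, had 1.06 and 1.47, and its averaged effect no longer passed without the block (adjusted p = 0.055). GPNMB, a transmembrane glycoprotein of lysosomes and melanosomes, had -1.46 and -2.50, and IL1R2, the decoy receptor for interleukin-1, had -1.44 and -2.11 (averaged adjusted p = 0.00014 and 8.2e-05).

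Over all genes, 22 of 10338 (0.213%) had groups that did not overlap in either population and moved the same way, and 14 of these were shared genes. This set was chosen after values were seen. The rises were ABCA3, TCN2 (transcobalamin, the carrier of vitamin B12), MYRF (a membrane-bound transcription factor), FAT1 (an atypical cadherin) and ATP11A (a phospholipid flippase). TCN2 stood at 8.14 to 18.2 CPM in CD133- Control and 20.7 to 34.1 in CD133- EIF4G2KD, and at 8.54 to 16.3 and 25.3 to 30.9 CPM in the CD133+ groups. It rose by 0.99 (SE 0.20) and 1.16 (SE 0.22), while FAT1 had an averaged effect of 0.81 and MYRF of 0.93.

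The 9 falls of that set were APOC1, B3GNT10, CCN3, GIPR, KLHL13, PIR, PTK6, RRAS2 and STMN3. PTK6, a tyrosine kinase of epithelial cells, stood at 10.2 to 12.3 CPM in CD133- Control and at 4.29 to 8.11 in CD133- EIF4G2KD, and at 6.88 to 9.50 and 2.45 to 4.31 CPM in the CD133+ groups. Its averaged effect was -1.20 (SE 0.15, adjusted p = 4.0e-05). PIR, an iron-binding nuclear protein, ranged from 44.7 to 50.8 CPM in CD133- Control and 29.5 to 40.3 in CD133- EIF4G2KD, with CD133+ groups of 45.3 to 55.8 and 17.5 to 33.4 CPM. APOC1, an apolipoprotein, had an averaged effect of -1.07, GIPR, the receptor of the incretin GIP, of -1.67, and STMN3, a stathmin that destabilizes microtubules, of -1.10. KLHL13 was at -1.52 in CD133- against -0.78 in CD133+ cells, a difference that did not pass the test (adjusted p = 0.31). Without the 4 libraries that stood apart, B3GNT10, CCN3, PIR and RRAS2 were no longer shared, with CD133- effects of -0.33, -0.55, -0.25 and -0.16.

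Small noncoding RNAs were collected after values were seen, so their count is a description only. Of 16 tested, 6 were called, all higher. By the averaged effect, 10 passed the adjusted p as higher and 0 as lower (7.43% and 7.54% over all tested genes), with a median averaged effect of 0.68 against 0.00086 over all genes. Without the block, edgeR passed 5 of them (SCARNA22, TERC, SCARNA26A, SNORA100 and SNORA50C), all higher. Without the 4 libraries that stood apart, SCARNA26A, SNORA100 and SNORA50C were no longer shared. H/ACA RNAs, the SNORA family among them, guide pseudouridylation and share their protein core with telomerase. The 10 named SCARNA, SNORA or TERC included 9 that were higher, and the exception was SCARNA9 (-0.19, adjusted p = 0.75). MARS-seq primes on poly(A), and whether the reads came from polyadenylated forms of these RNAs or from priming elsewhere was not tested.

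SCARNA22, a Cajal body RNA encoded in NSD2 (chr4:1974636-1974760, plus strand), and the template part of TERC, the telomerase RNA (chr3:169764980-169765040, minus strand), are shown because they had the largest smaller effect of the 2 populations among shared rises. In SCARNA22, capitals mark the 2 matches to the H box pattern between its hairpins (A, any base, A, any 2 bases, A) and the ACA box that lies 3 bases before the 3' end, and in TERC the template, read from GRCh38 and written with T for U.
SCARNA22: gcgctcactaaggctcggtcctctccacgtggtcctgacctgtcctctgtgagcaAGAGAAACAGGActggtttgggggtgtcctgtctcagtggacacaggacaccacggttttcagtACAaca
TERC: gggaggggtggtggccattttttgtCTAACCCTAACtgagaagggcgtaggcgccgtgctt
SCARNA22 stood at 1.58, 19.7, 3.98, 6.4 and 2.31 CPM in CD133- Control and at 7.46, 37.8, 14.5, 24.9 and 11.6 CPM in CD133- EIF4G2KD. The CD133+ levels were 1.72, 5.43, 1.97 and 1.70 CPM in Control and 5.13, 30.2, 26.2, 18 and 12.8 CPM in EIF4G2KD. Groups overlapped, with replicate 2 the highest of each of the 4 groups, and the EIF4G2KD library was higher in 9 of 9 same-numbered pairs. SCARNA22 rose by 1.67 (SE 0.28) and 2.74 (SE 0.35), with an adjusted p for both of 0.021, whereas its host NSD2 had an averaged effect of 0.019 (SE 0.073, adjusted p = 0.88).

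TERC stood at 1.84, 16.3, 8.62, 1.92 and 2.57 CPM in CD133- Control and at 9.14, 27.4, 19.6, 17.5 and 7.28 CPM in CD133- EIF4G2KD. In CD133+ cells it stood at 0.645, 4.27, 2.30 and 3.17 CPM in Control and at 6.75, 21.6, 19.7, 13.2 and 9.18 CPM in EIF4G2KD, with no overlap. It rose by 1.57 (SE 0.30) and 2.29 (SE 0.37), and was higher in 9 of 9 pairs. SNORA57 had a log2 fold change of -0.24 in CD133- and 3.33 in CD133+ cells (adjusted p of the difference 0.013), so its averaged rise came from a single population. SNORA50C lies inside SNHG25, which also passed the test (averaged effect 0.58, adjusted p = 0.0070), and reads of the 2 cannot be told apart.

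**Figure D3:**
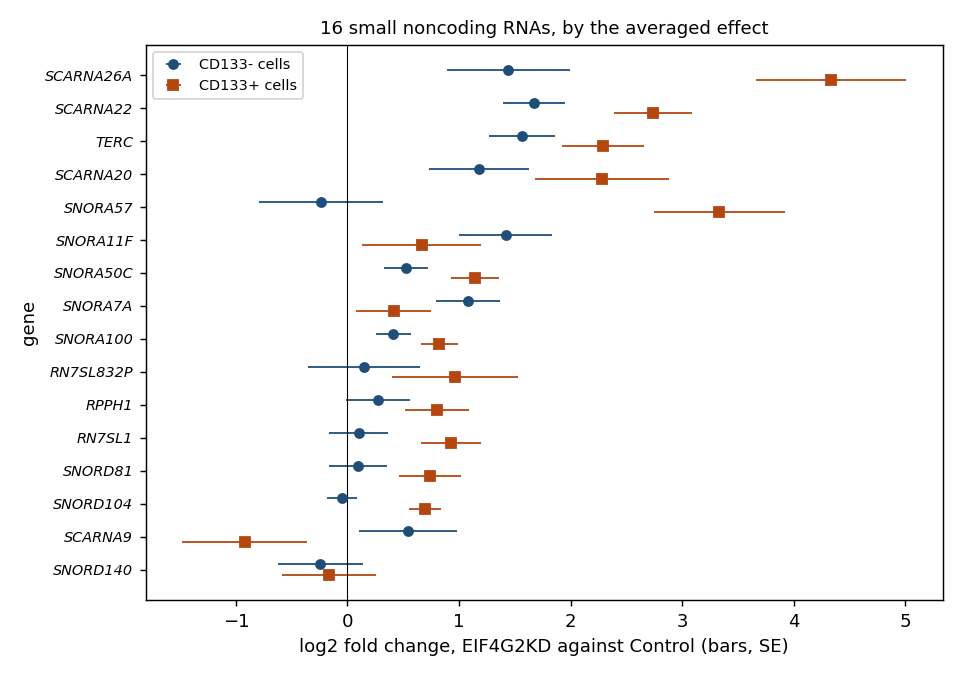
Log2 fold change (x axis) of 16 small noncoding RNAs in CD133- and CD133+ cells, EIF4G2KD against Control, with bars of 1 SE, ordered by the averaged effect. SCARNA26A, SCARNA22, TERC and SCARNA20 are above 1 in both populations, and SNORA57 is at -0.24 in CD133- and 3.33 in CD133+ cells.

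Pathway lists are described by members past the adjusted p of the averaged effect, against 7.43% higher and 7.54% lower over all tested genes. In the basement membrane list (19 tested), 7 were higher and 3 lower, but only 3 of the 7 rises and 2 of the 3 falls had p below 0.05 in both populations, and 3 of the 7 lie on 1q. The list's median effect was 0.0067 in CD133- and 0.39 in CD133+ cells. NID2, its relative NID1 (-0.58, adjusted p = 0.0044) and LAMA2 (-0.53, adjusted p = 0.0098) were the falls. NID1 and LAMA2 no longer passed without the block (adjusted p = 0.21 and 0.089). LAMC1, a laminin chain, rose (0.88, SE 0.16, adjusted p = 0.0011). It ranged from 15.4 to 36.0 CPM in CD133- Control and from 26.0 to 71.3 in CD133- EIF4G2KD, with CD133+ groups of 15.6 to 27.1 and 26.0 to 54.2 CPM, so both pairs of groups overlapped. Its CD133- effect without the 4 libraries that stood apart was 0.22, and it was no longer shared. LAMB3 passed with opposite signs, at -0.20 in CD133- and 0.69 in CD133+ cells. In the L1 and neural adhesion list (10 tested), L1CAM and ROBO1, a guidance receptor for SLIT ligands, were lower (ROBO1 -1.56, SE 0.21, adjusted p = 9.8e-05) and 0 were higher.

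Glucocorticoid targets and metallothioneins (10 tested) had 5 falls and 0 rises, and 2 of the 5 falls had p below 0.05 in both populations. The metallothioneins MT2A (-0.94, adjusted p = 0.00063) and MT1X (-1.38, adjusted p = 0.0023), which bind zinc and copper, were shared. MT2A ranged from 811 to 1419 CPM in CD133- Control and from 629 to 951 in CD133- EIF4G2KD, and from 1073 to 2792 and 574 to 1010.4 CPM in the CD133+ groups. SCNN1A, a sodium channel subunit, belonged to CD133+ cells alone (0.07 in CD133- and -1.88 in CD133+ cells, adjusted p of the difference 0.00047, averaged adjusted p without the block 0.096). Thrombin receptor and tissue factor genes (12 tested) had 3 falls, led by F2R, the thrombin receptor PAR1 (-1.53, adjusted p = 0.00034), and TFPI2, an inhibitor of serine proteases (-1.92, adjusted p = 0.0028). Without the 4 libraries that stood apart, TFPI2 was driven by CD133+ cells (-0.31 in CD133- and -3.04 in CD133+ cells).

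Kinesin-1 and other motors (32 tested) had 3 rises and 4 falls. Of these, 0 rises and 2 falls had p below 0.05 in both populations. Among the falls were 2 subunits of kinesin-1. KIF5B, its heavy chain, stood at 30.5 to 37.9 CPM in CD133- Control, and at 30.8, 14.6, 36.9, 4.61 and 2.14 CPM in CD133- EIF4G2KD replicates 1 to 5. The low values were replicates 2, 4 and 5, the libraries that stood apart, while replicates 1 and 3 lay at the control level. Replicates 2, 4 and 5 also had the least EIF4G2 of this group, at 102, 51.1 and 36.8 CPM against 163 and 164 CPM in replicates 1 and 3. Whether KIF5B followed EIF4G2 over libraries was not tested. The CD133+ groups were at 25.6 to 37.2 and 7.23 to 11.1 CPM and did not overlap. Its averaged effect was -1.37 (SE 0.28, adjusted p = 0.0033), and its CD133- effect was -1.01 (SE 0.37, adjusted p = 0.17). Without the 4 libraries the effects were 0.039 in CD133- and -1.57 in CD133+ cells, and KIF5B, shared in the main fit, was then classed as driven by CD133+ cells. KLC3, a light chain, had -0.74 and -0.81 in the 2 populations (averaged adjusted p = 0.00064), and its neighbour ERCC2 overlaps it on the other strand. Among 34 initiation factors tested, a list that leaves out EIF4G2, EIF1B, EIF3G, EIF1AX and EIF4A2 were higher, and EIF5B (-0.90) was a shared fall, while EIF3J and EIF3D passed as lower without being shared.

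Of the stress genes (36 tested), 8 were lower and 3 higher. Only 2 of the 8 falls and 1 of the 3 rises had p below 0.05 in both populations, and 4 of the 8 falls lie on 9, 19q or 21. ATF5, a transcription factor of the amino acid response, was driven by CD133+ cells, and DDIT4 was a shared fall (-0.61, adjusted p = 0.017). Neither passed without the block (adjusted p = 0.51 and 0.61). Heat shock genes CRYAB (-1.24, adjusted p = 0.00017) and DNAJB6 (-0.80, adjusted p = 0.00057) were shared falls, the latter no longer without the 4 libraries that stood apart (-0.15 in CD133- cells). The p53 targets had 3 falls of 18 tested (BBC3, GADD45A and GDF15), and without the block these passed no longer (adjusted p = 0.47, 0.22 and 0.53). Actin and LIM genes had 7 rises and 7 falls of 40, with 2 rises and 2 falls at p below 0.05 in both populations. FHL1 was a shared fall (-2.03, adjusted p = 1.0e-05), and SCIN, which severs actin filaments, rose by 5.38 in CD133+ cells against 0.99 in CD133- cells (adjusted p of the difference 3.6e-05). Cytosolic ribosomal proteins (4 higher and 2 lower of 75) and cholesterol and fatty acid synthesis (2 and 0 of 34) had shares below those of all tested genes.

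**Figure D4:**
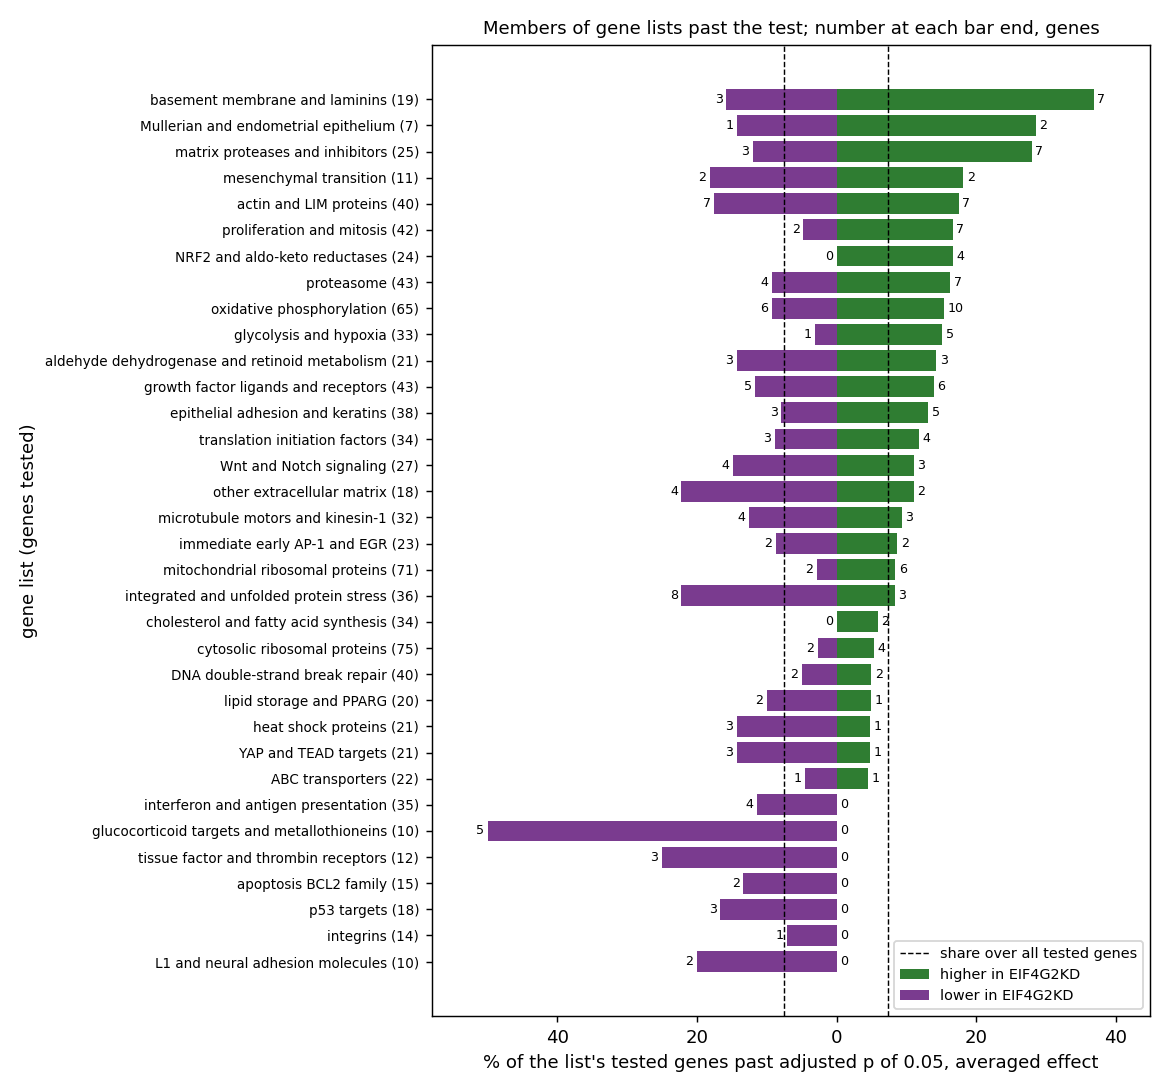
Share of the tested genes of each list (percent, number of genes at each bar) with an averaged effect past an adjusted p of 0.05, higher (right) or lower (left) in EIF4G2KD, with dashed lines at 7.43% and 7.54%, the shares over all tested genes. The basement membrane list has 7 of 19 higher (3 of them with p below 0.05 in both populations), and the glucocorticoid and metallothionein list 5 of 10 lower (2 of them with p below 0.05 in both).

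Genes driven by a single population were set apart, named by the size of their effect there. BAHCC1 had 0 to 0.985 CPM in CD133+ Control and 27.4 to 38.4 in CD133+ EIF4G2KD, whereas CD133- groups were 0.77 to 4.64 and 0.61 to 4.28 CPM. POU3F3, a neural POU-domain transcription factor, stood at 1.46 to 3.10 CPM in CD133+ Control and 25.1 to 44.5 in CD133+ EIF4G2KD, against 10.5 to 16.2 and 13.2 to 18.9 CPM in CD133- cells. FUOM, a fucose mutarotase, went the other way, at 51.2 to 81.3 CPM in CD133+ Control and 2.37 to 8.61 in CD133+ EIF4G2KD, and its CD133- groups overlapped at 37.9 to 62.1 and 31.7 to 56.1 CPM. SP140 was a further rise and SH2D6 and LINC00869 were further falls, with adjusted p of the difference between 2.1e-05 and 0.021.

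Only 3 called genes were driven by CD133- cells, and all were lower. IL1RAPL1, a synaptic member of the interleukin-1 receptor family, stood at 5.03 to 12.8 CPM in CD133- Control and 1.12 to 4.28 in CD133- EIF4G2KD, against 7.52 to 20.7 and 8.52 to 16.5 CPM in CD133+ cells. It fell by 2.00 (SE 0.35, adjusted p = 0.016) in CD133- cells, and the difference was 1.85 (adjusted p = 0.019). PIK3CD-AS2, antisense to PIK3CD, and FBXO2, an F-box protein that recognizes glycoproteins, had CD133- effects of -1.73 and -1.28. Without the block, 40 of the 88 genes and 0 of the 3 kept their class.

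Chromosome position moved with the CD133+ effect. The median log2 fold change of the genes of 1q was 0.51 in CD133+ cells, and that of chromosomes 9, 19q and 21 was -0.51, -0.43 and -0.47, while in CD133- cells the 4 medians were -0.0022, 0.086, 0.045 and 0.021. These regions held 13.6% of tested genes, 26.4% of called genes, 22.1% of shared genes and 30.7% of those driven by CD133+ cells. The regions were picked because earlier results of these data showed them to shift in CD133+ EIF4G2KD cells, so these shares are a description only. Of the 768 genes higher by the adjusted p, 151 were on 1q, and of the 780 lower, 254 were on 9, 19q or 21. LAMB3, LAMC1, SERTAD4-AS1 and NID1 lie on 1q, while VSTM1, KLC3, APOC1 and GIPR lie on 19q. Without these regions, 197 of 253 shared genes and 5 of 7 of the strictest set were left. The part of these regions in the values of single genes was not tested.

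**Figure D5:**
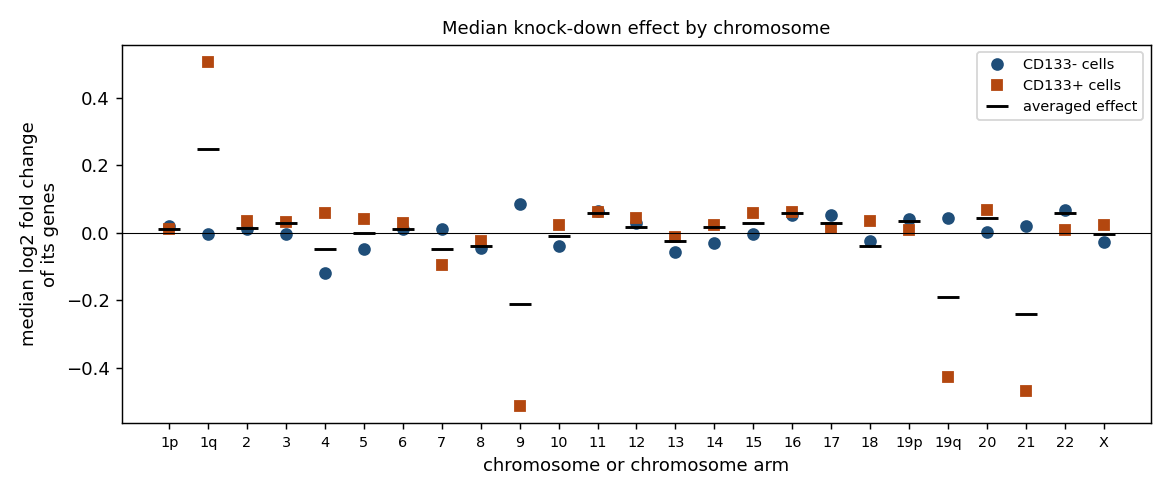
Median log2 fold change of the tested genes of each chromosome or arm (y axis) in CD133- cells, CD133+ cells and as the averaged effect. In CD133+ cells 1q lies at 0.51 and 9, 19q and 21 lie between -0.51 and -0.43, while their CD133- medians are within 0.09 of 0.

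When the 4 libraries that stood apart were left out, 386 genes were called (319 of them among the 511) and 163 were shared (121 of them among the 253). EIF4G2, NID2, L1CAM, ABCA3, PPARG and SCARNA22 still passed the test of the averaged effect there, at -0.66 for EIF4G2.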

How the data were processed

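Bulk MARS-seq libraries of sorted HEC-1A cells were analysed from 1 deposited table of 12558 genes and 19 libraries. Per the labels and the study's methods, the authors used cutadapt for trimming, STAR 2.4.2a for alignment to hg38 and HTSeq for counting; whether reads with the same molecular identifier were collapsed in these columns was not tested. The deposited raw counts were the input of every test. The deposited normalized values, a signal that the authors made by dividing counts by DESeq2 size factors, were used only for the minimum mean of 10. The authors' statistics tables hold fold changes and p-values of their own comparisons and were not used.

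Counts were fitted with edgeR 4.0.16 (R 4.3.3; quasi-likelihood, TMM scaling, filterByExpr with a minimum count of 10 and a minimum total of 15, which left 10338 genes), with 4 population terms and the replicate number as block. Contrasts were the effect in each population, their mean and their difference, with Benjamini-Hochberg adjustment over all tested genes. Calls needed an adjusted p below 0.05, an absolute log2 fold change above 0.58 and a mean normalized count above 10. The test of both populations took the larger of their p-values. CPM were computed with the TMM-scaled library sizes. Library pairs of a group differed by more than counting noise (chi-square per degree of freedom 4.70 to 27.0 over 36 pairs), so none was counted as 1 sample. The script was tested on simulated data.

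Gene symbols were placed with GENCODE on GRCh38 (12033 by symbol, 192 by RefSeq synonym, 333 unplaced), and promoters and RNA sequences were read from RefSeq and that genome (Python 3.11.15). Named genes were EIF4G2, PROM1, NID2, L1CAM and ABCA3, the genes that moved in both populations (up to 12 a direction by the smaller effect), up to 3 genes a direction driven by each population, and, for each list, the 3 or fewer passing genes of lowest adjusted p. The members, the lists and the chromosome regions set apart were chosen with earlier results of these data known. Sets said to be chosen after values were seen fall outside that rule, and some genes that it picks are not reported here. Alternatives were no block, DESeq2 1.42.0, limma-voom 3.58.1, RLE scaling, no count filter, other thresholds, and leaving out libraries or chromosomes.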

Additional observations from a re-analysis of the deposited data

Results flagged for a closer look

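Among the named genes, 35 had an effect that differed between the populations by edgeR's test of the difference (adjusted p from 9.7e-09 for RAB25 to 0.046 for SERTAD4-AS1). Of all tested genes, 6.56% passed that test. The count leaves out genes named only as small noncoding RNAs or HOXA genes, of which SNORA57 and HOXA11 passed as well. Values are the CD133+ minus the CD133- log2 fold change. Among the genes of the strictest set it was -0.85 for SERTAD4-AS1 and -1.07 for CST6. Among those named as driven by a single population it was 5.86 for BAHCC1, 3.52 for POU3F3, 2.98 for SP140, -3.90 for FUOM, -3.04 for LINC00869, -3.23 for SH2D6, 1.85 for IL1RAPL1, 1.53 for PIK3CD-AS2 and 1.10 for FBXO2. Members of the pathway lists with a positive difference were SCIN (4.39), RAB25 (3.05), SOX17 (2.41), ALDH1A1 (2.17), SEMA3B (1.11), RPL32 (0.95), CENPF (0.71), PSMB4 (0.68), PSMD4 (0.67), ENO2 (0.67), PARP1 (0.58), ADIPOR1 (0.53) and MRPL24 (0.48). Those with a negative difference were DHRS3 (-2.64), SCNN1A (-1.95), BIK (-1.70), CLDN9 (-1.57), WNT7A (-1.29), ITGB2 (-1.21), ATF5 (-1.08), DCTN3 (-0.78), MRPL41 (-0.69), ATP5PF (-0.63) and SLC16A3 (-0.57).

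A library far from the others of its group (Dixon's test) was found in 10 of 140 groups looked at, 35 genes in 4 groups each, and chance gives about 1 in 20. CD133- Control replicate 2 was high for SCARNA22 (19.7 CPM) and stood apart for PIK3CD-AS2 (3.87 CPM), and CD133+ Control replicate 2 was high for SCARNA22 (5.43 CPM). CD133+ EIF4G2KD replicate 3, a library apart on the first component, was high for L1CAM (3.95 CPM) and FUOM (8.61 CPM). CD133- EIF4G2KD replicate 4 stood apart for APOC1 (5.53 CPM) and STMN3 (2.30 CPM). The others were CD133+ Control replicate 4 for LINC00431 (43.0 CPM), CD133- Control replicate 3 for SP140 (1.99 CPM) and CD133- Control replicate 5 for FUOM (62.1 CPM).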

How the results depend on the processing

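EIF4G2 kept its direction and passed under every alternative, from -1.16 to -0.87 with 1 library left out. Without the replicate block, 277 genes were called on the averaged effect (272 of them among the 511), 135 were shared (132 of them among the 253), 42 were driven by a single population, 0 moved in both by the strictest test, and 1 was called in CD133- and 619 in CD133+ cells. Of 27 same-numbered pairs of libraries, 24 correlated above 0.1 in their deviations (-0.23 to 0.70, median 0.42), against a median of -0.09 for different numbers, and 12 of 19 libraries correlated best with their own number, so the numbers pair most samples but not all. The strictest test gave 21 genes with DESeq2, 41 with limma-voom and 4 without the 4 libraries that stood apart, and CD133- cells alone gave 177, 374 and 45. Without those 4 libraries 163 genes were shared (121 of them among the 253), and without replicate 3 in every population 169 were called in CD133- cells. By adjusted p alone, 1548 genes passed on the averaged effect (768 higher, 780 lower), 534 were shared (275 higher, 259 lower), 307 were driven by a single population and 1701 were called in CD133+ cells. With a mean normalized count above 30, 290 were called and 167 shared, and NID2 and L1CAM were not among them. Without the genes of 1q, 9, 19q and 21, 609 were called in CD133+ cells. With 1 library left out, the averaged effect held 401 to 734 genes, the strictest test 0 to 31, the shared class 179 to 315, the single-population class 75 to 100, CD133- cells 0 to 390 (highest without CD133- EIF4G2KD replicate 3, and 0 without CD133- Control replicate 1, 4 or 5 or CD133- EIF4G2KD replicate 1) and CD133+ cells 801 to 1082. PROM1, which did not pass, ranged from -0.029 without CD133- Control replicate 5 to 0.35 without CD133- Control replicate 3. Of 125 named genes, 39 no longer passed without the block. The cause was not tested.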

Other observations

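Homeobox genes of the HOXA cluster, which pattern the female reproductive tract, were looked at after values were seen. Of 7 tested, 2 passed on the averaged effect, both higher (7.43% of all tested genes were higher). HOXA5 ranged from 23.9 to 75.9 CPM in CD133- Control and from 66.9 to 109 in CD133- EIF4G2KD, and from 31.8 to 39.7 and 49.7 to 89.3 CPM in the CD133+ groups, which did not overlap. It rose by 0.98 in CD133- and by 0.88 in CD133+ cells (averaged adjusted p = 0.00022, edgeR), and HOXA6 had 0.73 and 1.00 (averaged adjusted p = 0.0072). HOXA11 had 0.37 and -1.28, and the difference passed the test (adjusted p = 0.0079).

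PAX2, a transcription factor of the Mullerian tract, was a shared rise (0.63 and 1.52, averaged adjusted p = 0.0013), whereas SOX17, a regulator of endometrial glands, was at -0.16 in CD133- and 2.25 in CD133+ cells. CD74, the invariant chain of antigen presentation, was a shared fall (-0.68 and -1.22, averaged adjusted p = 1.3e-05).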
